A study of Rattus norvegicus with 36 samples.

Results

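The subject is the liver transcriptome on the 6 vehicle arrays of a study of hexabromocyclododecane (HBCD), a brominated flame retardant once used in polystyrene foam and textiles. Members were the 6 samples labelled as HBCD vehicle control, of 36 arrays in all, and every probe set on them that was not a control was used. The other 30 arrays came from livers given HBCD, with 6 arrays at each dose: 0.06 mg/kg, 0.641 mg/kg, 6.41 mg/kg, 64.1 mg/kg and 641 mg/kg. All 6 groups were male Sprague Dawley rats, 7 weeks old when the study began, fed NTP-2000 diet, and gavaged on 5 consecutive days with 5 ml/kg of corn oil that carried the dose or, for vehicle, no HBCD. Tissue was the left lobe of the liver, taken 1 day after the last gavage. The vehicle livers therefore describe young males after repeated corn oil, not livers without any handling or oil load. The labels number the replicates without saying that each array is a separate rat, so an SD here is the spread between these samples, which may in part be technical.

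The liver parenchyma is made of hepatocytes, which release most plasma proteins into the blood and carry out gluconeogenesis, urea synthesis, bile acid synthesis and the oxidation and conjugation of foreign compounds. In the rat many hepatic genes differ between the sexes, because the pituitary releases growth hormone in pulses in males and more steadily in females. Males are known for high Cyp2c11 and Cyp3a2, which encode P450 enzymes, and for secreted urinary proteins of the lipocalin family. Hepatocytes share the tissue with Kupffer cells, sinusoidal endothelium, stellate cells and bile duct cells.

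Levels are RMA values on a log2 scale, so that a difference of 1 is a doubling of signal. Each gene symbol was represented by its probe set with the highest vehicle mean, which gave 14217 genes. The order of genes by level is an order of signal, since probe sets differ in how strongly they bind their transcript, and it does not order amounts of RNA. Genes that belong to other organs gave the local scale of background. Of 51 such genes, 46 lay below the mean array median of 4.88, their median level was 3.75 and their 90th percentile was 4.71. The heavy chain gene of skeletal muscle myosin, Myh1, at 11.27 ± 0.088, and the myelin gene Mbp, at 6.76 ± 0.40 (SD, n = 6 here and below), were the pair of exceptions above 6. All 5 probe sets annotated to Myh1 were above background, with means of 8.08 to 11.27, while the muscle genes Myh4 and Ckm were at 2.26 ± 0.074 and 3.61 ± 0.14. A level of 6 was taken as the lower limit for describing spread, and 7433 genes, or 52.3% of those measured, reached it.

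Promoters of 5 genes are shown because they stand for the kinds of gene described below. Alb had the highest level of all genes, Cyp2c11 and Cyp2e1 were P450 genes among the leading 100, and Ugt2b and Bcl6 had the largest and the fourth largest SD among genes above 6. Sequences and coordinates are from RefSeq on the GRCr8 assembly, 250 bases before to 50 after the annotated start, 5′ to 3′ on the gene's own strand. The windows are chr14:17906930-17907229 on the minus strand for Alb, chr1:246174966-246175265 on the plus strand for Cyp2c11, chr1:205269717-205270016 on the plus strand for Cyp2e1, chr14:20985199-20985498 on the plus strand for Ugt2b and chr11:90358503-90358802 on the plus strand for Bcl6. Capitals mark matches to the motifs listed in the next paragraph.
Alb: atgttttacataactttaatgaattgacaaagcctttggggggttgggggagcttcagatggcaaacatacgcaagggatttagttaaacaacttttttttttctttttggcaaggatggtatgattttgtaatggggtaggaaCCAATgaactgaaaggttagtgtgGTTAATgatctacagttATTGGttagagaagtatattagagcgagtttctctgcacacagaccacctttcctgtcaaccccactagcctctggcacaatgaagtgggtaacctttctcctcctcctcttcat
Cyp2c11: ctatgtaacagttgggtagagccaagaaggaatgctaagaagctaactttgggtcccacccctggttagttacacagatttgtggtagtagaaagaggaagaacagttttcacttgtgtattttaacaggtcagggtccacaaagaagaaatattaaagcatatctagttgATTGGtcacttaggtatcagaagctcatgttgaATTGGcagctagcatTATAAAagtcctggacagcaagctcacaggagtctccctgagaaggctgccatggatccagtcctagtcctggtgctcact
Cyp2e1: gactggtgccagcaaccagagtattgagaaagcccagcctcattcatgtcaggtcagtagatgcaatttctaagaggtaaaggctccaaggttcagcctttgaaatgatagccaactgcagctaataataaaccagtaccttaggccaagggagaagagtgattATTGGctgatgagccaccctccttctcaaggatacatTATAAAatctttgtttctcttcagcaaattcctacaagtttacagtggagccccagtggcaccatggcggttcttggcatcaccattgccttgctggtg
Ugt2b: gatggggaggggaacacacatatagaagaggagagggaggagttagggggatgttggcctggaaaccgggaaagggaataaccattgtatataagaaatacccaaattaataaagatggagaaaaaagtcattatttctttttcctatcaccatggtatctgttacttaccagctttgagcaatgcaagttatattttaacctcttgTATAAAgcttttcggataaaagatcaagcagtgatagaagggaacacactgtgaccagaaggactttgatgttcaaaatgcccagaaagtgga
Bcl6: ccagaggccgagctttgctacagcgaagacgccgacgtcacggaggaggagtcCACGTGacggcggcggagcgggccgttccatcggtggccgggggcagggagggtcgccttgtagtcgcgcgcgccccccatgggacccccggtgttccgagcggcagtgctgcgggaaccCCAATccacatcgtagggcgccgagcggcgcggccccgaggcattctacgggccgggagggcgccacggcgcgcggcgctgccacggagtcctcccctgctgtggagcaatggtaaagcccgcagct

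Both strands of each window were searched for 7 motifs. The TATA box was read as the letters TATAAA. The CCAAT box, bound by NF-Y, was read as its name. Basic helix-loop-helix factors, among them the clock proteins, bind the E-box, which was read as CACGTG. Sp1 factors bind the GC box, which was read as GGGCGG. For STAT factors the letters were TTCNNNGAA, and for HNF1, an activator of hepatocyte genes, the opening bases of its site, GTTAAT, were used. The full-length HNF1 consensus, which begins with the same letters, was searched as well. In Alb the letters GTTAAT began 82 bases before the start, between CCAAT matches at 106 and 65 bases. The TATA letters began 31 bases before the start in Cyp2c11, 49 in Cyp2e1 and 43 in Ugt2b. The Bcl6 window held no TATA match and had an E-box at 197 bases. A single promoter was listed for 79 of the 100 genes with the highest vehicle mean, for 73 of the 100 with the largest SD above a level of 6, and for 10946 of all genes measured. TATAAA was found in 22.8% of the first set and 28.8% of the second, against 8.45% of all. The letters GTTAAT stood in 19.0% of the first set, 9.59% of the second and 4.81% of all. The full-length HNF1 consensus stood in 0 of the 79 windows of the first set, 1 of the 73 of the second and 3 of the 10946 of all. GC boxes stood in 30.4% and 45.2% against 57.9%, and the median GC content was 50.3% and 56% against 60%. E-boxes stood in 6.33% and 15.1% against 9.07%, STAT forms in 11.4% and 12.3% against 6.98%, and CCAAT in 43.0% and 46.6% against 37.3%. These are counts of letters in a window and were not tested.

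Whole-array measures of the 6 vehicle arrays were as follows. Medians over probe sets lay between 4.86 and 4.89, pairs of arrays correlated at 0.994 to 0.997 across probe sets, and the 3′ minus 5′ difference of the Gapdh control probe sets lay between -0.061 and 0.054. The same difference for the actin control was 0.99 on replicate 1, the lowest, and 1.38 on replicate 5, the highest. Between 20 and 37 genes per array were more than 1 log2 unit away from the mean of the other 5, with replicate 1 at the high end. Alb stood at 14.53 on 4 arrays to the fourth decimal, which was the maximum of each of those arrays, so genes at the top of the scale had values close to a shared maximum. Median SD was smaller at higher levels, at 0.11 for levels of 6 to 8, 0.095 for 8 to 10, 0.079 for 10 to 12, 0.066 for 12 to 13 and 0.032 from 13 up.

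**Figure D1:**
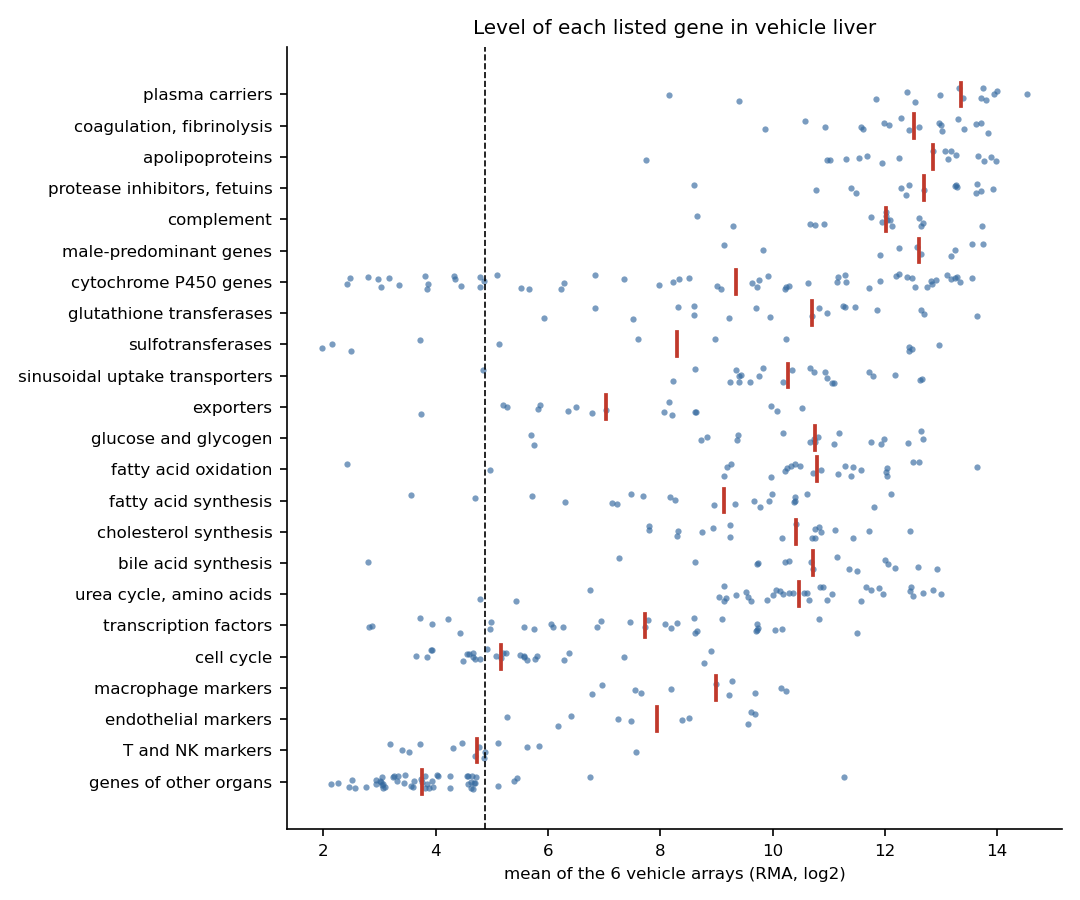
Mean RMA level (log2, horizontal axis) over the 6 vehicle arrays for each gene of 23 groups; each point is 1 gene, each red bar the group's median, and the dashed line the mean array median of 4.88. Plasma carriers have the highest median, at 13.35, and genes of other organs the lowest, at 3.75, with Myh1 as the point above 11.

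Secreted plasma proteins held the top of the list. Albumin (Alb), which carries fatty acids and sets oncotic pressure, was the leading gene at 14.53 ± 0.012. It was followed by transthyretin (Ttr), a carrier of thyroid hormone and of retinol-binding protein, at 13.99 ± 0.019, by Apoc3, an apolipoprotein that slows triglyceride clearance, at 13.98 ± 0.022, and by Gc, the vitamin D binding protein, at 13.94 ± 0.011. Serpina1, the inhibitor of neutrophil elastase, was next at 13.93 ± 0.017, with 13.90 on the lowest array, a median of 13.94 and 13.94 on the highest. Of the 30 leading genes, all had a mean of at least 13.34, and the mitochondrial genes COX2 at 13.86 ± 0.014 and COX1 at 13.56 ± 0.17 were among them. Other leading genes whose products stay in the cell were Mgst1, a microsomal glutathione transferase, at 13.64 ± 0.024, the fatty acid binding protein Fabp1 at 13.64 ± 0.039 and the muscle and liver carbonic anhydrase Car3 at 13.61 ± 0.075. COX1 had the largest SD of these 30 genes and Car3 the next. Every one of the leading 100 genes had a mean of at least 12.61, their median SD was 0.042, and 88 of them had an SD under 0.1.

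Carrier proteins of plasma were measured for 14 genes, of which 9 were among the leading 100, against 0.703% of all genes. All 14 were above 6, with a median of 13.35. Haptoglobin (Hp), which binds free haemoglobin, was at 13.80 ± 0.013 and Ambp, the precursor of alpha-1-microglobulin and bikunin, at 13.75 ± 0.014. The lowest were the fetal albumin relative Afp, at 8.15 ± 0.11, and Serpina7, which carries thyroxine, at 9.41 ± 0.49. Serpina7 varied most in this group, with 8.76 on the lowest array, a median of 9.36 and 10.25 on the highest. Orm1, an acute phase glycoprotein, was second in spread, at 12.40 ± 0.20.

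Apolipoproteins and the enzymes that remodel lipoproteins were all above 6 in the 17 genes measured, with a median level of 12.86 and 9 genes among the leading 100. Apoe, the ligand for remnant uptake, was at 13.90 ± 0.023, Apoh at 13.76 ± 0.023, Apoc1 at 13.66 ± 0.026 and Apob, the structural protein of very low density lipoprotein, at 13.27 ± 0.059. Pltp, which transfers phospholipid between lipoproteins, was the lowest at 7.75 ± 0.070. Apoa4 had the largest SD of the group, with 10.95 on the lowest array, a median of 11.34 and 11.57 on the highest.

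The clotting and fibrinolysis genes behaved alike. All 18 measured were above 9, their median was 12.52, and 17 had an SD under 0.1. The fibrinogen chains Fgg, Fga and Fgb were at 13.83 ± 0.024, 13.71 ± 0.027 and 13.62 ± 0.030. Antithrombin (Serpinc1) was at 13.40 ± 0.018 and vitronectin (Vtn) at 13.30 ± 0.074. The cofactor F5 was lowest at 9.87 ± 0.072, and Klkb1, prekallikrein, had the largest SD, at 11.57 ± 0.14. Among 16 complement genes the median was 12.02. C3, the point at which the complement pathways meet, was at 13.74 ± 0.026, C4bpa at 12.67 ± 0.048 and Cfi at 12.65 ± 0.065, and 13 of the 16 had an SD under 0.1. The terminal component C6 was both the lowest and the most variable, at 8.66 ± 0.43, with 8.21 on the lowest array, a median of 8.66 and 9.13 on the highest. Median SD was 0.055 for the clotting and 0.065 for the complement genes, against 0.066 for all genes at levels of 12 to 13.

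Protease inhibitors and fetuins were represented by 15 genes with a median of 12.69, and 8 of them stood among the leading 100. Fetuin A (Ahsg), an inhibitor of calcification, was at 13.71 ± 0.030, the inter-alpha-trypsin inhibitor chain Itih3 at 13.64 ± 0.027 and Serpina3c at 13.63 ± 0.027. The acute phase inhibitor A2m was lowest, at 8.60 ± 0.37, and ranged as 8.06 on the lowest array, a median of 8.61 and 9.09 on the highest. Of the acute phase genes, the lipocalin Lcn2 was at 5.28 ± 0.20 and the cytokine feedback gene Socs3 at 4.47 ± 0.24. Neither was above 6 on average.

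Hormones and hormone-binding proteins of hepatic origin were measured for 15 genes and were less uniform, with a median SD of 0.22 among the 14 above 6. Igf1, the growth factor induced by growth hormone, was at 13.02 ± 0.061 and the iron hormone gene Hamp at 12.22 ± 0.13. Angptl4, an inhibitor of lipoprotein lipase, was at 10.16 ± 0.61, and Igfbp1, an insulin-suppressed binding protein, at 9.31 ± 0.59. Fgf21, a fasting and amino acid stress hormone, was at 7.09 ± 1.19 and had 5.46 on the lowest array, a median of 7.38 and 8.30 on the highest. The low values of Fgf21 were on replicates 1 and 6. Angptl4, Igfbp1, Fgf21 and Inhbe, an activin subunit at 8.97 ± 0.51, were the 4 genes of the group with an SD over 0.5.

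Cytochrome P450 genes were measured for 58 symbols, of which 39 were above 6 and 10 among the leading 100. P450 enzymes oxidise steroids, fatty acids and foreign compounds. Cyp3a2 was the highest at 13.55 ± 0.033, followed by Cyp2e1, which oxidises ethanol and small solvents, at 13.34 ± 0.073. Cyp2c6v1 was at 13.28 ± 0.070, Cyp2c13 at 13.24 ± 0.034 and Cyp2c11, a male androgen 16-alpha and 2-alpha hydroxylase, at 13.17 ± 0.064. Cyp3a2 had 13.49 on the lowest array, a median of 13.56 and 13.57 on the highest, and Cyp2c11 had 13.10 on the lowest array, a median of 13.16 and 13.26 on the highest. Both male markers were thus high on every array, with no vehicle array below 13. The lowest were Cyp2b12, at 2.42 ± 0.11, and Cyp11b1, an adrenal enzyme of corticosteroid synthesis, at 2.47 ± 0.14, inside the range of genes of other organs. Cyp1a1, known for induction through the aryl hydrocarbon receptor, was at 4.45 ± 0.18, below the array median, while Cyp1a2 was at 12.75 ± 0.071. P450 genes of one subfamily are near-copies of each other, so probe sets for Cyp2c, Cyp2b and Cyp3a members may share signal.

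**Figure D2:**
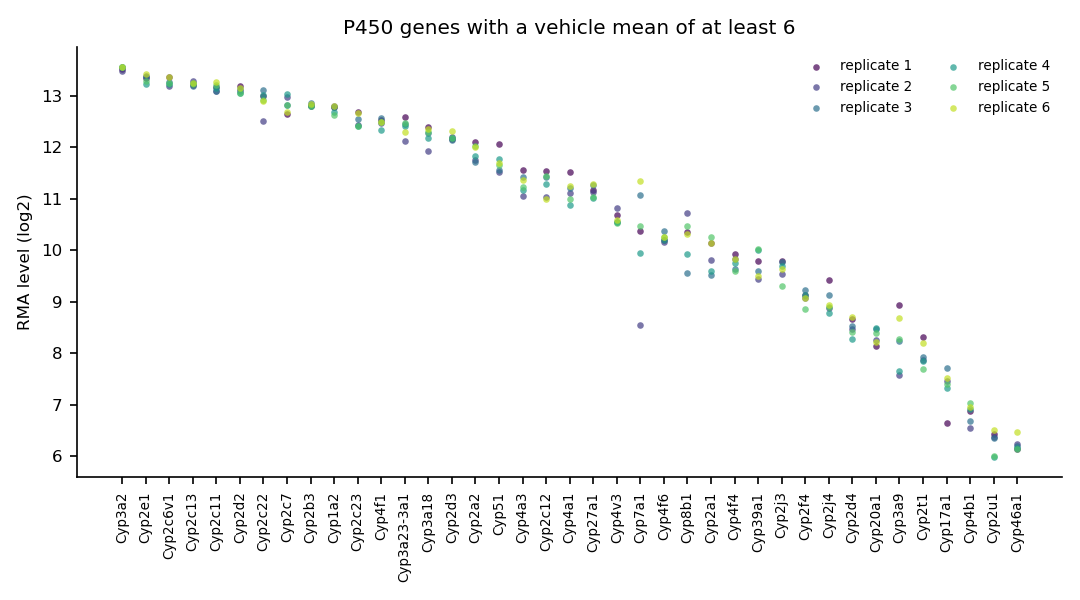
RMA level (log2, vertical axis) of the 39 P450 genes with a vehicle mean of at least 6, ordered by mean; each point is 1 of the 6 vehicle arrays, coloured by replicate. Points of a gene mostly overlap, while Cyp7a1 runs from 8.55 on replicate 2 to 11.35 on replicate 6.

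Spread was unequal within the family. Median SD over the 39 genes was 0.16, against 0.10 for all genes above 6. Cyp7a1, the rate-limiting enzyme of the classic bile acid pathway, had the largest at 10.30 ± 0.99, with 8.55 on the lowest array, a median of 10.43 and 11.35 on the highest. Cyp3a9, at 8.23 ± 0.54, was second. These were the only pair of P450 genes above 6 with an SD over 0.5, which was 5.13% of the 39, against 0.915% of all genes above 6.

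Genes known to be male-predominant in rat liver were all above 9 in the 10 measured, with a median of 12.61. Rup2, a urinary protein gene, was at 13.74 ± 0.041 and Obp3, a secreted lipocalin, at 12.64 ± 0.27. Other probe sets of Rup2 had means of 9.77 to 13.64, and the lowest of them had an SD of 0.95. Among the probe sets that represent the 10 genes, that of Obp3 was the most variable. It had 12.20 on the lowest array, a median of 12.65 and 12.95 on the highest. Hsd17b2 was lowest at 9.13 ± 0.14. Of 9 genes known to be female-predominant, 6 were above 6 and 3 were below the array median, and the median level was 8.23. The 3 low ones were the hydroxysteroid sulfotransferases Sult2a1 and Sult2a2, at 2.16 ± 0.14 and 2.50 ± 0.15, and A1bg, at 3.55 ± 0.13. Sult2a6, of the same family, was above 6, as given below. Signal was high for Cyp2c7, at 12.84 ± 0.15, and for Cyp2c12, at 11.29 ± 0.23, which is best known from female rat liver. Cross-hybridisation between Cyp2c members, or between urinary protein genes, was not tested.

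Among conjugating enzymes, glutathione transferases, which attach glutathione to electrophiles, had 18 of 19 genes above 6 and a median of 10.71. Gstm1 was at 12.69 ± 0.13 and Gsta1 at 12.63 ± 0.060, while Gstm3 was lowest at 5.94 ± 0.22. Gsta3 varied most, with 7.05 on the lowest array, a median of 7.48 and 8.25 on the highest. Of 6 glucuronosyltransferases on the list, Ugt2b35 led at 12.95 ± 0.045 and Ugt2b7 was lowest at 4.24 ± 0.17. Sulfotransferases split into a high and a low set: Sult1e1, the oestrogen sulfotransferase, was at 12.96 ± 0.16 and Sult1b1 at 12.48 ± 0.088, while 4 of 12 were below the array median. Sult2a6 was the most variable, at 8.98 ± 0.77. Ces1c and Ces1d, carboxylesterases, were at 12.97 ± 0.12 and 12.56 ± 0.14. Cyb5a, the cytochrome b5 that passes electrons to P450 enzymes, was at 13.19 ± 0.017, and Por, the P450 reductase, at 8.22 ± 0.27.

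Uptake transporters of the sinusoidal side were above 6 for 23 of 24 genes, with a median of 10.27. Slc27a2, a fatty acid transporter that also acts as an acyl-CoA synthetase, was at 12.67 ± 0.039, and Slc10a1, the sodium-dependent bile salt carrier NTCP, at 12.63 ± 0.080. They were the 2 solute carriers among the leading 100, of 308 solute carrier genes measured, of which 145 were above 6. Slc27a5, a bile acid CoA ligase, was at 12.18 ± 0.047, Slc38a4, an amino acid carrier, at 11.79 ± 0.049 and Slco1a4, an organic anion carrier, at 11.71 ± 0.27. The arginine carrier Slc7a2 was lowest at 4.85 ± 0.12. The taurine carrier Slc6a6 had the largest SD in the group, with 8.79 on the lowest array, a median of 9.33 and 10.03 on the highest.

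Exporters of the canalicular and basolateral sides were above 6 for 12 of 17 genes, with a median of 7.03 and none among the leading 100. The bile salt export pump Abcb11 was at 10.53 ± 0.20, the sterol exporter Abca1 at 10.08 ± 0.27 and the conjugate exporter Abcc2 at 9.97 ± 0.10. Slc47a1, a cation exporter, was lowest at 3.74 ± 0.067 and Abcc3, an exporter of the basolateral side, was at 5.20 ± 0.37. The sterol half-transporters Abcg5 and Abcg8, which work as a pair, had the largest SD, at 8.06 ± 0.44 and 6.36 ± 0.44. Abcg5 had 7.48 on the lowest array, a median of 8.11 and 8.68 on the highest, and Abcg8 had 5.72 on the lowest array, a median of 6.40 and 6.98 on the highest. Over all 37 ABC transporter genes, 23 were above 6.

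Intermediary metabolism was present across its branches. For glucose and glycogen, 17 of 19 genes were above 6, with a median of 10.75. Pck1, which commits oxaloacetate to gluconeogenesis, was at 12.69 ± 0.12, Fbp1, a later step of the same route, at 12.41 ± 0.079 and Ldha at 12.65 ± 0.052. Ppp1r3b, which directs a phosphatase to glycogen, was the most variable, at 11.09 ± 0.35. Fatty acid oxidation and ketogenesis had 22 of 24 genes above 6 and a median of 10.79, led after Fabp1 by the acyl-CoA synthetase Acsl1 at 12.61 ± 0.085 and the thiolase Acaa2 at 12.51 ± 0.11. Pdk4, which holds back pyruvate oxidation in fasting, was at 9.26 ± 0.38 and had 8.67 on the lowest array, a median of 9.32 and 9.76 on the highest. The respiratory chain and ATP synthase genes were uniform, with 17 of 20 at an SD under 0.1, as were the ribosomal and elongation factor genes, with 12 of 14. Median SDs of these lists were 0.060 and 0.059, at median levels of 11.2 and 12.2. All genes at levels of 10 to 12 and 12 to 13 had median SDs of 0.079 and 0.066, so much of this goes with level.

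Lipid synthesis was less uniform. Fatty acid and triglyceride synthesis had 19 of 22 genes above 6, with a median SD of 0.16. Elovl5 and Fads1, which elongate and desaturate polyunsaturated fatty acids, were at 12.11 ± 0.086 and 11.81 ± 0.13. Scd, the delta-9 desaturase, had the largest SD, at 9.94 ± 1.09, with 8.19 on the lowest array, a median of 10.13 and 11.12 on the highest. Its low values were on replicates 2 and 6. Cholesterol synthesis was measured for 19 genes, all above 7, with a median of 10.41. Fdps was highest at 12.45 ± 0.17, and Insig1, the sterol-regulated brake on this pathway, had the largest SD, at 10.75 ± 0.66. None of the 19 had an SD under 0.1, and their median SD was 0.24, against 0.10 for all genes above 6. The mean deviation of the pathway from its own vehicle average was 0.28 on replicate 1, the highest array, and -0.32 on replicate 3, the lowest.

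Bile acid synthesis had 16 of 17 genes above 6. Scp2 was at 12.94 ± 0.057 and Baat, which joins bile acids to glycine or taurine, at 12.59 ± 0.082. Cyp7b1, of the alternative pathway, was at background, at 2.79 ± 0.19. Cyp8b1, which sets the share of cholic acid, was second to Cyp7a1 in spread, with 9.56 on the lowest array, a median of 10.34 and 10.72 on the highest. Of 36 genes of the urea cycle and of amino acid breakdown, 34 were above 6, with a median of 10.46. Cps1, the first enzyme of the cycle, was at 13.005 ± 0.086, Hpd of tyrosine breakdown at 12.85 ± 0.13, Arg1 at 12.67 ± 0.043 and Ass1 at 12.51 ± 0.12. Tat, an aminotransferase induced by glucocorticoids, had the largest SD of these, with 8.58 on the lowest array, a median of 9.11 and 9.76 on the highest. The methionine and sulfur amino acid genes Cth and Cdo1 were at 12.80 ± 0.054 and 12.79 ± 0.062. Among redox enzymes, Gpx1 was at 13.04 ± 0.065, catalase (Cat) at 12.96 ± 0.078 and Sod1 at 12.96 ± 0.013.

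Genes of the periportal and the perivenous zones of the lobule were both present. Ass1, Arg1 and Pck1, named above, are known from periportal hepatocytes, where Sds was lowest at 5.44 ± 0.32. Of the perivenous list, Cyp2e1 and Cyp1a2 were high, and Rnase4, a secreted ribonuclease, was at 13.28 ± 0.030. Glutamine synthetase (Glul), known from the last rows of cells before the central vein, was at 10.91 ± 0.26, and Lgr5 was at background, at 3.03 ± 0.23.

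Hepatic transcription factors and nuclear receptors were above 6 for 23 of 33 genes, and none was among the leading 100. Hnf4a, a central regulator of hepatocyte genes, was the highest at 11.51 ± 0.083, and Cebpb and Cebpa, basic leucine zipper factors, were at 10.83 ± 0.34 and 10.05 ± 0.47. The receptors for foreign compounds Nr1i2 (PXR) and Nr1i3 (CAR) were at 8.20 ± 0.12 and 7.74 ± 0.48. Vdr and Cux2 were lowest, at 2.88 ± 0.15 and 2.81 ± 0.10. Cux2 is known from mouse liver as a female-predominant repressor. The largest SD in this list belonged to Bcl6 and Onecut1, treated below.

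Signal from other liver cells was present. All 11 macrophage markers were above 6, with Clec4f, a Kupffer cell lectin, at 10.24 ± 0.17 and the lysozyme Lyz2 at 10.15 ± 0.25. Of 10 endothelial markers 9 were above 6, with Lyve1 at 9.69 ± 0.13. Stellate and fibroblast markers had 8 of 14 above 6, led by Col3a1 at 10.89 ± 0.30. Of 8 bile duct markers 3 were above 6, with Epcam at 8.49 ± 0.15 and Krt7 at 3.39 ± 0.18. Neutrophil markers were all below 6, and of 14 T and NK cell markers only Ccl5, at 7.57 ± 0.25, was above it. The haemoglobin gene Hbb, a red cell gene, was at 12.15 ± 0.17, and of the pancreas genes only Cela1 was above 6, at 9.75 ± 0.17, with Amy2a3 at 2.48 ± 0.11. In whole tissue, fewer cells of a type and less RNA per cell cannot be told apart. Cell cycle genes had a median of 5.17, with 5 of 27 above 6 and 11 below the array median, Pcna highest at 8.90 ± 0.078 and Bub1 lowest at 3.66 ± 0.47.

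**Figure D3:**
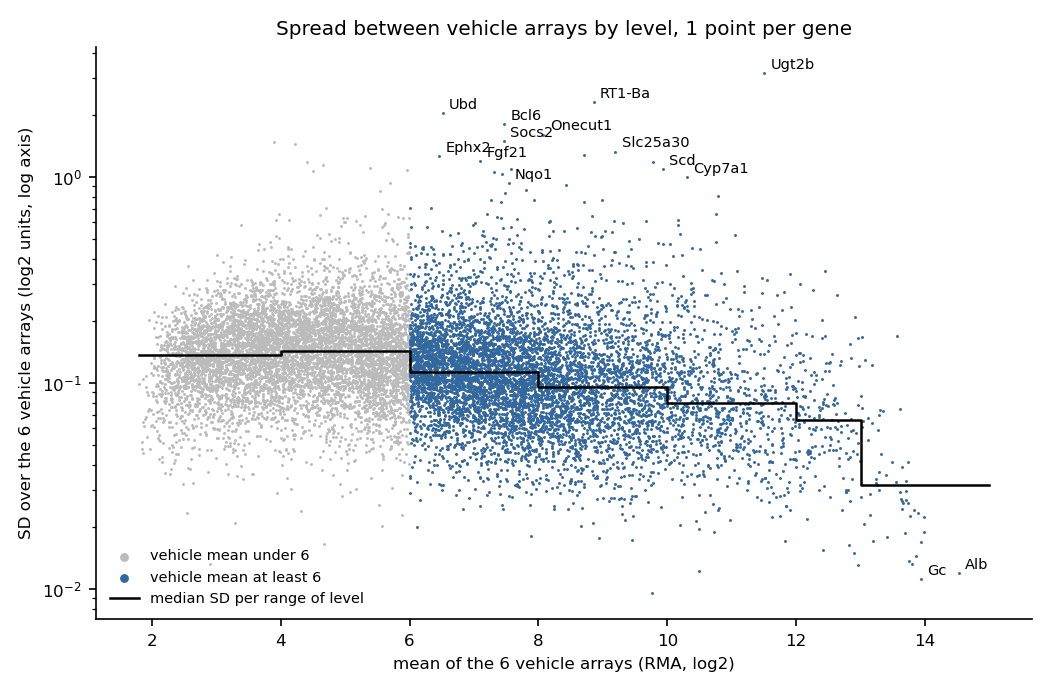
SD over the 6 vehicle arrays (log2 units, log vertical axis) against the vehicle mean (log2) for all 14217 genes, 1 point each; the black line is the median SD per range of level. Ugt2b, RT1-Ba, Ubd, Bcl6 and Onecut1 stand above the cloud, and Alb and Gc lie at its lower right end.

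Most genes differed little between the 6 vehicle arrays. Above a level of 6 the median SD was 0.10, 3539 of 7433 genes had an SD under 0.1, 68 had one over 0.5 and 15 over 1. The smallest SD belonged to Ufm1, which encodes a ubiquitin-like modifier, at 9.76 ± 0.0095. It was followed by Gc, Alb, the clathrin light chain gene Clta, at 10.48 ± 0.012, and Sod1. Gc and Alb lie close to the shared maximum of the arrays, whereas Ufm1 and Clta lie lower. In the dosed groups, median SD over the same 7433 genes lay between 0.106 at 0.06 mg/kg and 0.110 at 0.641 mg/kg, against 0.103 in vehicle. Genes with an SD over 0.5 numbered 61 to 115 in the dose groups and 68 in vehicle. Those with an SD over 1 numbered 5 to 12 in the dose groups and 15 in vehicle.

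The largest SD of all belonged to Ugt2b, annotated as a UDP-glucuronosyltransferase of the family that conjugates steroids, bile acids and drugs. It had 5.02 on the lowest array, a median of 12.80 and 12.998 on the highest. Replicate 3 alone was low, at 5.02, and the other 5 vehicle arrays were at 12.50 or above, so that the mean of 11.51 describes none of the arrays. Its second probe set was also low on replicate 3 alone, at 2.35, against 8.75 or more on the other vehicle arrays. Among the 30 dosed arrays, 1 at 0.06 mg/kg had 6.77 and 1 at 0.641 mg/kg had 5.23, while every other dosed array was at 12.56 or above. In all, 3 of 36 arrays were low. By Pearson's r over the 6 vehicle arrays the genes most like Ugt2b were Adi1, Rnf20, Pacsin3, Mapkapk2 and Rnf31, at 0.973 to 0.992, but replicate 3 sets these values and the SD of those 5 genes was 0.15 or less, so the likeness describes 1 array.

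RT1-Ba, which encodes the alpha chain of a rat class II histocompatibility molecule, came second, with 4.24 on the lowest array, a median of 9.54 and 10.35 on the highest. Its low value was on replicate 6, and the other 5 arrays were at 9.40 or above. On that array 1 of the 3 other RT1-Ba probe sets was the highest of the 6, at 9.14 against 6.62 to 7.25, and the remaining 2 stayed within 6.51 to 6.94 on every vehicle array. RT1-Bb, the beta chain gene, was below 4 on the other 5 arrays and at 7.15 on replicate 6, by the probe set that represents it. Its second probe set did not rise there, at 3.61 on replicate 6 against 3.68 to 4.55 on the other 5. At 64.1 mg/kg replicate 6 also had a low RT1-Ba, at 4.62, and a high RT1-Bb, at 6.88. RT1-Bb was above 5 on 9 of the 30 dosed arrays, in all 5 dose groups, and on 1 of the 6 vehicle arrays. These dosed arrays included the one with the lowest RT1-Ba of each dose group. Apart from replicate 6 at 64.1 mg/kg, however, their RT1-Ba was at 8.04 or above. The invariant chain gene Cd74, expressed by the same antigen-presenting cells, was at 9.44 ± 0.37, with 8.99 on the lowest array, a median of 9.31 and 9.98 on the highest. Ubd, a ubiquitin-like protein induced by interferon, came next in spread, with 4.56 on the lowest array, a median of 6.09 and 9.44 on the highest. It was high on replicates 1, 2 and 6 and near background on replicates 3, 4 and 5. Of the vehicle arrays, Ephx2, the soluble epoxide hydrolase, was high on replicate 3 alone, at 8.88 against 6.45 or less. Nqo1, a quinone reductase, was high on vehicle replicate 2 alone, at 9.37 against 7.61 or less. On dosed arrays Ephx2 reached 8.82 at 0.06 mg/kg, 8.95 at 6.41 mg/kg and 8.77 at 641 mg/kg. Its highest values at 0.641 and 64.1 mg/kg were 6.74 and 6.08. Nqo1 reached 9.36 at 0.06 mg/kg, where its median was 7.07.

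**Figure D4:**
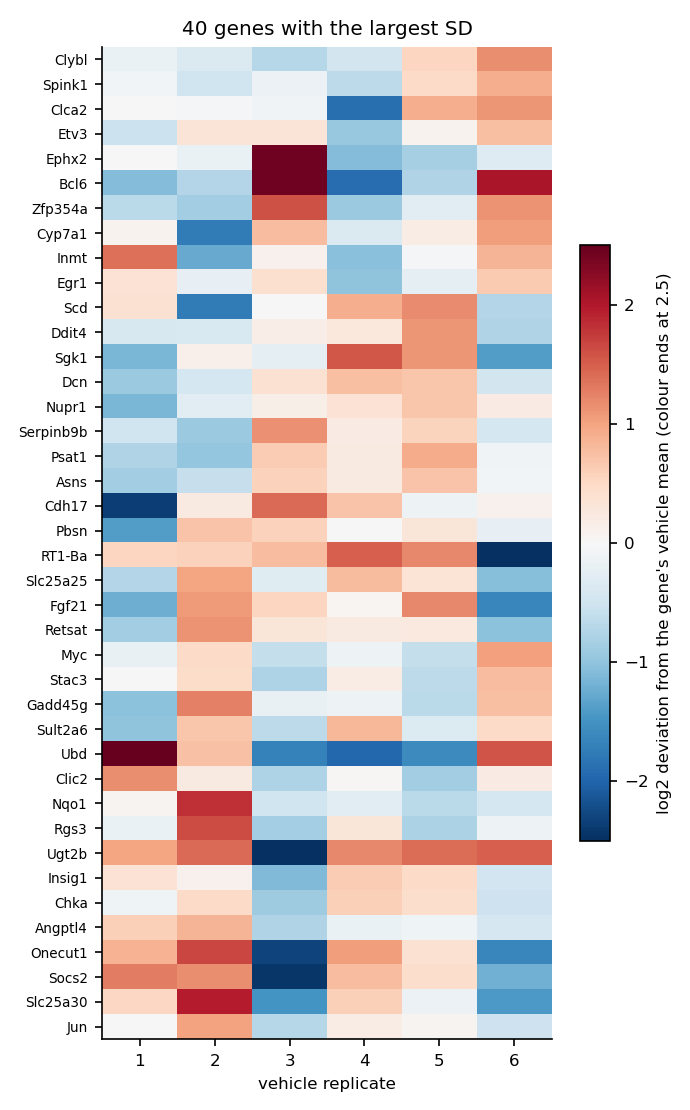
Deviation of each vehicle array from the gene's vehicle mean (log2, colour scale ending at 2.5) for the 40 genes with the largest SD above a level of 6; columns are the 6 vehicle replicates and rows are ordered by similarity. Bcl6 and Zfp354a are high, and Onecut1, Socs2 and Slc25a30 low, on replicates 3 and 6.

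A set of variable genes moved together over the 6 vehicle arrays. Bcl6, a transcriptional repressor that in rodent liver opposes STAT5 at shared targets, had 5.55 on the lowest array, a median of 6.73 and 9.90 on the highest. Its high values were on replicates 3 and 6, at 9.90 and 9.51, and the other 4 arrays were at 6.73 or below. Onecut1 (HNF6), a factor of hepatocyte and bile duct development, was lowest on the same pair, at 5.75 and 6.45, and at 8.45 or above on the other 4. Socs2, a feedback inhibitor of growth hormone signalling, was at 5.03 and 6.26 there, against 7.90 or above. Slc25a30, a mitochondrial carrier, was at 7.71 and 7.76, against 9.04 or above. Zfp354a, a zinc finger gene, was at 9.17 and 8.69, against 7.32 or below. In rodents Onecut1, Socs2 and Bcl6 are known to follow the pulses of growth hormone, Bcl6 in the opposite sense. Growth hormone was not measured.

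The same genes are described on the dosed arrays for 9 pairs. The pairs were chosen after values of all 36 arrays had been seen, so their correlations are a description with no test, and the dosed arrays are no independent check. Each of the 30 dosed arrays was taken as its deviation from the mean of its dose group. Onecut1 and Socs2 had Pearson's r = 0.939 and Spearman's rho = 0.912. The value of r was 0.931 without the 2 arrays farthest from the median of Onecut1, and 0.919 to 0.965 within the 5 dose groups. Onecut1 and Slc25a30 had r = 0.927 and rho = 0.883, with r = 0.906 without 2 arrays and 0.840 to 0.983 within groups. For Onecut1 and Bcl6 r was -0.840 and rho -0.753, with r = -0.798 without 2 arrays and -0.953 to -0.538 within groups. Onecut1 and Cyp7a1 had r = -0.849 and rho = -0.821, with r = -0.803 without 2 arrays and -0.943 to -0.689 within groups.

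The remaining 5 pairs ranged from close to weak. Onecut1 and Zfp354a had r = -0.616 and rho = -0.696, with r = -0.564 without 2 arrays and -0.878 to -0.299 within groups. Onecut1 and Insig1, at 0.875 over the 6 vehicle arrays, had r = 0.412 and rho = 0.298, with r = 0.264 without 2 arrays and -0.553 to 0.759 within groups. Asns and Psat1, which make asparagine and serine, had r = 0.932 and rho = 0.904, with 0.900 without 2 arrays and 0.792 to 0.971 within groups. Fgf21 and G0s2, an inhibitor of triglyceride lipase, had r = 0.663 and rho = 0.708, with 0.716 without 2 arrays and 0.381 to 0.973 within groups. Dcn and Lum, matrix proteoglycans of fibroblasts, had r = 0.766 and rho = 0.807, with 0.791 without 2 arrays and 0.482 to 0.935 within groups.

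**Figure D5:**
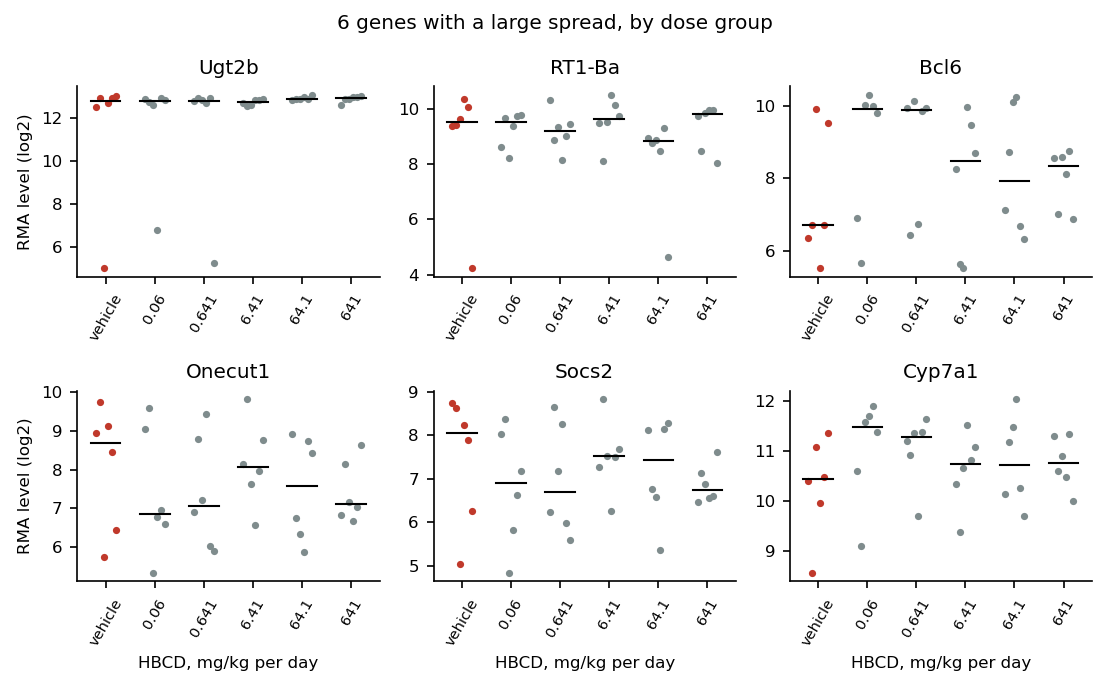
RMA level (log2, vertical axes) of 6 variable genes on every array, with vehicle (red) at the left and HBCD at 0.06 to 641 mg/kg per day (grey) to its right; each point is 1 array and each black bar the group's median. Ugt2b has 1 low array in each of 3 groups, and Bcl6 and Onecut1 spread widely in all 6.

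The dose groups shared part of this spread. Of the 100 genes with the largest vehicle SD, 48 to 57 were also among the 100 with the largest SD of a dose group, while 40 of the 100, which were chosen for their vehicle SD, had a higher SD in vehicle than in all 5 dose groups. An SD over 0.5 was found in all 6 groups for 15 genes, among them Bcl6, with an SD of 0.83 to 1.98 over groups, Onecut1, with 0.79 to 1.61, Cyp7a1, with 0.51 to 1.05, and Insig1, with 0.52 to 0.66. Egr1, Jun and Dusp1, immediate early genes, were also among the 15. Socs2 was below that mark in 1 group or more, with dose group SDs of 0.44 to 1.34. Mean deviations of gene lists also differed between vehicle arrays. The mean deviation of the immediate early genes was 0.44 on replicate 2, the highest array, and -0.20 on replicate 5, the lowest. Interferon response genes, a list of 16 above 6 that includes RT1-Ba, had 0.54 on replicate 4, the highest array, and -0.30 on replicate 6, the lowest. RT1-Ba, at 4.24 on replicate 6 against 9.40 or above on the other 5, weighs heavily on that lowest mean. It therefore does not describe a shift shared by the list. Stellate and fibroblast markers had 0.35 on replicate 5, the highest array, and -0.31 on replicate 2, the lowest. These 3 lists had the widest vehicle ranges, and the same ranges within dose groups ran from 0.34 to 0.96, from 0.37 to 1.61 and from 0.34 to 0.76, against 0.63, 0.84 and 0.66 in vehicle. Of 43 lists with 3 or more genes above 6, the vehicle range lay within those of the dose groups for 22, below all 5 for 12 and above all 5 for 9. Among the 9 were cholesterol synthesis, with at most 0.56 in a dose group and 0.60 in vehicle, targets of CAR and PXR, receptors through which foreign compounds induce genes, with 0.28 and 0.35, and hepatic transcription factors, with 0.19 and 0.27. Among the 12 were macrophage markers, with at least 0.36 in a dose group and 0.30 in vehicle, and acute phase genes, with 0.18 and 0.14. Every list has 1 widest and 1 narrowest of the 6 groups, so such lists are to be met for any group. These counts were not tested.

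The vehicle livers were last compared with the dosed livers, to ask which genes of the baseline differed under HBCD. The model was limma over all 36 arrays with group as its factor, and p-values were adjusted over all 31042 probe sets by Benjamini-Hochberg. At 641 mg/kg, 2.48% of genes passed an adjusted p of 0.05 (352 genes, 247 higher and 105 lower than vehicle). Of the 100 genes with the highest vehicle mean, 12 did. Higher than vehicle were 7, against 1.74% of all genes, and lower were 5, against 0.739%. Without vehicle replicate 5 the count of the 100 was 8. The 100 were chosen on vehicle values that also enter this contrast. At 64.1 mg/kg, 0.0703% of genes passed, and 1 of the 100. No gene passed at 6.41, 0.641 or 0.06 mg/kg by limma, with 514, 664 and 542 genes at an unadjusted p under 0.05. For the mean of the 5 dose groups minus vehicle, 0.0914% passed (13 genes, all higher than vehicle), and none of them was among the 100, of which 8 were at an unadjusted p under 0.05 by limma. The 13 became 7 without vehicle replicate 2, 3 or 5, and 6 without vehicle replicate 4.

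The 7 that rose at 641 mg/kg included P450 and conjugating enzymes. Cyp3a2 averaged 13.72 ± 0.063 at 641 mg/kg and 13.55 ± 0.033 in vehicle, a log2 difference of 0.18 ± 0.038 (SE, limma adjusted p = 0.00823). Cyp2c6v1 averaged 13.54 ± 0.046 at 641 mg/kg and 13.28 ± 0.070 in vehicle, a log2 difference of 0.26 ± 0.041 (SE, limma adjusted p = 0.000107). Gstm1 averaged 13.21 ± 0.046 against 12.69 ± 0.13 in vehicle, a log2 difference of 0.52 ± 0.059 (SE, limma adjusted p = 2.09e-07). Adh1c, an alcohol dehydrogenase, averaged 13.33 ± 0.081 against 13.03 ± 0.17 in vehicle. Gsta1, Cyb5a and Pgrmc1, a haem-binding partner of P450 enzymes, were the others. The 5 that fell were Rnase4, Rarres2, Cyp2b3, Cth and Cyp1a2. Cyp1a2, which oxidises caffeine, averaged 12.29 ± 0.11 at 641 mg/kg and 12.75 ± 0.071 in vehicle, a log2 difference of -0.46 ± 0.056 (SE, limma adjusted p = 6.42e-07). Rarres2, the chemerin gene, averaged 12.73 ± 0.063 against 12.89 ± 0.059 in vehicle. Of the lists of secreted proteins, apolipoproteins had 3 of 17 genes passing, all lower than vehicle, and protease inhibitors 1 of 15, higher than vehicle, against 2.48% of all genes. Plasma carriers, clotting genes and complement had 0 of 14, 18 and 16 by limma, with 2, 7 and 0 at an unadjusted p under 0.05, a count too small to be read against 2.48%. Of 58 P450 genes 7 passed, 5 higher and 2 lower than vehicle, against 1.74% higher and 0.739% lower of all genes. Of 16 CAR and PXR targets, 14 passed, all higher than vehicle, against 1.74% higher of all genes. That list was chosen with earlier results of these arrays known. Its count was therefore in part set in advance and is no evidence about these targets as a set.

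The 13 genes higher over the mean of the 5 dose groups lay outside the leading 100. Ces2c, a carboxylesterase, had a mean of 7.74 over the dose groups and 6.87 in vehicle, a log2 difference of 0.87 ± 0.10 (SE, limma adjusted p = 1.16e-05). Gsta3 had a mean of 8.35 over the dose groups and 7.52 in vehicle, a log2 difference of 0.82 ± 0.16 (SE, limma adjusted p = 0.0295). Others were Aldh1a1, Ugt2b1, Cyp3a23-3a1, Cyp3a18, Ugt2a1, Ephx1 and Mgst2, all of foreign compound or aldehyde metabolism, together with Cryl1, Hsd17b2, C8h11orf54 and Blvrb. The 641 mg/kg arrays enter this mean, and the log2 differences from vehicle of these 13 genes had a median of 0.073 at 0.06 mg/kg, 0.18 at 0.641 mg/kg, 0.22 at 6.41 mg/kg, 0.55 at 64.1 mg/kg and 0.99 at 641 mg/kg. Their limma adjusted p-values for 641 mg/kg minus vehicle were 1.52e-14 to 0.000125. For the mean of the 4 doses below 641 mg/kg, a contrast added after the values were seen, 0 genes passed by limma, with 676 at an unadjusted p under 0.05.

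Of the 20 genes with the largest vehicle SD, 1 passed at 641 mg/kg, against 2.48% of all genes. It was Scd, a fatty acid desaturase, which had 7.45 on the lowest array, a median of 8.08 and 8.41 on the highest at 641 mg/kg, and 8.19, 10.13 and 11.12 in vehicle, a log2 difference of -1.96 ± 0.34 (SE, limma adjusted p = 0.000601). The lowest vehicle array lay among the 641 mg/kg arrays, so the groups overlapped. Nqo1 did not pass, with 7.99 on the lowest array, a median of 8.33 and 10.03 on the highest at 641 mg/kg, and 6.86, 7.17 and 9.37 in vehicle, where replicate 2 alone was above 7.61, a log2 difference of 1.06 ± 0.34 (SE, limma adjusted p = 0.119). Bcl6, Onecut1, Socs2, Slc25a30 and Cyp7a1 did not pass either, with log2 differences of 0.53 ± 0.91, -0.66 ± 0.72, -0.59 ± 0.61, -0.59 ± 0.50 and 0.47 ± 0.45 (SE). Their values in dosed and in vehicle livers overlapped. The 20 genes were chosen on vehicle values that also enter this contrast and widen its SE. Not passing therefore does not show a lack of change, and 1 of 20 is too small a count to be read against 2.48%.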

How the data were processed

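Liver RNA of 36 samples was measured on 1-colour Affymetrix arrays, 6 arrays per group. What the authors deposited is 1 log2 value for each probe set and array. The submitters' processing notes name RMA and affy. Versions and settings are not given in the sources used here. RMA corrects background, sets all arrays to 1 distribution and summarises probes, which brings values near the top of the scale close to a shared maximum. The table holds no detection calls, and precision is limited by there being 6 arrays a group.

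Of 31099 probe sets, 57 controls were left out. A platform annotation, updated through a GRCr8 gene table, gave 20826 probe sets with 1 symbol (20758 by gene ID, 2 by accession, 66 kept), 436 with several and 9780 with none. Each of 14217 symbols was represented by its probe set with the highest vehicle mean. Means, SDs and ranks are over the 6 vehicle arrays. Dose contrasts used limma 3.58.1 in R 4.3.3 with group as factor over 36 arrays, two-sided, Benjamini-Hochberg over 31042 probe sets, tested on simulated data. Other values were computed in Python 3.11.15 with pandas 2.3.3. Promoters with a single listed start were taken from RefSeq.

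Genes were to be named from the 30 highest, the 20 with the largest and the 10 with the smallest SD above a level of 6. Per list, they were to be named from up to 5 highest, 2 lowest and 2 most variable. Not all of these genes appear in the text. Other genes in the text were chosen after their values were seen. Members, lists and motifs were chosen with earlier results of these data known. Alternatives tried were the replicate block, repeated quantile normalization, median centring, a filter on dim probe sets, a variance trend with robust moderation, leaving out arrays, fitting only the pair of groups compared, other measures of spread, and other rules for a gene's probe sets.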

Additional observations from a re-analysis of the deposited data

Results flagged for a closer look

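Of 197 genes named here, 18 had 1 vehicle array far from the other 5, by Dixon's ratio of the gap to the range above its 95% critical value. Chance marks about 1 group in 20, and 5.00% of all genes above a level of 6 met the same mark, so such a value in a named gene is not rare in itself. The genes are described by that array's value and the range of the other 5.

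Gaps of more than 1 log2 unit were found for 5 genes. Ugt2b was at 5.02 on vehicle replicate 3, against 12.50 to 12.998. RT1-Ba was at 4.24 on vehicle replicate 6, against 9.40 to 10.35. RT1-Bb, by the probe set that represents it, was at 7.15 on vehicle replicate 6, against 3.50 to 3.80. Ephx2 was at 8.88 on vehicle replicate 3, against 5.37 to 6.45. Nqo1 was at 9.37 on vehicle replicate 2, against 6.86 to 7.61.

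The 5 genes chosen for their likeness to Ugt2b had to be low on the same array. Adi1 was at 10.68 on vehicle replicate 3, against 10.82 to 10.84, Mapkapk2 at 7.75 on vehicle replicate 3, against 8.05 to 8.15, Pacsin3 at 7.58 on vehicle replicate 3, against 7.84 to 7.94, Rnf20 at 6.30 on vehicle replicate 3, against 6.49 to 6.53 and Rnf31 at 6.21 on vehicle replicate 3, against 6.38 to 6.44.

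For the rest the gaps were smaller. The sterol exporter Abca1 was at 9.56 on vehicle replicate 3, against 10.08 to 10.31, Glul at 10.42 on vehicle replicate 1, against 10.88 to 11.10 and Ppp1r3b at 10.42 on vehicle replicate 1, against 11.14 to 11.45. Gstm1 was at 12.94 on vehicle replicate 1, against 12.59 to 12.70, and the mitochondrial gene COX1 at 13.23 on vehicle replicate 5, against 13.54 to 13.70. Among genes near the top of the scale, Ahsg was at 13.76 on vehicle replicate 5, against 13.68 to 13.70, Apoh at 13.72 on vehicle replicate 4, against 13.76 to 13.78 and Alb at 14.50 on vehicle replicate 6, against 14.53 on the other 5. Replicate 3 was the far array for 8 of the 18 genes, 5 of which are the genes chosen for likeness to Ugt2b.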

How the results depend on the processing

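The leading genes hardly depended on the processing. Of the 100 with the highest vehicle mean, 86 stayed with the mean of a gene's probe sets, 95 with probe sets ranked on their own, 99 with the median over arrays or with repeated quantile normalization, and 98 to 100 without any 1 vehicle array. Of the 100 with the largest SD, 69 stayed with the median absolute deviation, 88 with the mean of probe sets, 97 with arrays centred on their median, and 82 to 86 without any 1 vehicle array. Median SD was 0.103. It was 0.0882 as a scaled median absolute deviation, 0.102 after repeated quantile normalization, 0.120 with no filter on level, 0.0997 with the mean of probe sets, and 0.0999 to 0.103 without 1 vehicle array. Counts of genes called against vehicle moved more. With dim probe sets left out, so that fewer were tested, the count was 24 in place of 13 for the mean of the 5 dose groups, 539 in place of 352 at 641 mg/kg, and 20 in place of 12 among the leading 100. With only the vehicle and 641 mg/kg arrays in the fit, which leaves fewer arrays to estimate the spread, the counts were 225 and 5. Leaving out 1 array gave 6 to 17 for the mean of the 5 dose groups, 237 to 350 at 641 mg/kg, and 8 to 11 among the leading 100. The labels use replicate numbers 1 to 6 in every group. Over 90 pairs of arrays with the same number, the correlation of their deviations had a median of 0.048 and ran from -0.409 to 0.426. Of these pairs 29 were over 0.1. Arrays of unlike number were not set beside them, so whether the numbers pair some of the samples was not tested. For the mean of only the 4 doses below 641 mg/kg, an alternative chosen after seeing the data, the count was 0 in place of 13. With the replicate number as a block the counts were 11, 337 and 11. Signal near background, and values near the maximum of the arrays, limit what a small SD or a small difference can show.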

Other observations

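Clock genes were measured for 19 symbols, of which 13 were above 6 and 5 below the array median. The positive arm of the clock, Clock and its partner Bmal1, was at 8.33 ± 0.087 and 7.15 ± 0.070 (SD, n = 6). The repressor Nr1d1 and the clock output factor Dbp were at 3.03 ± 0.12 and 4.57 ± 0.12, both below 6, where spread is not described. Bhlhe40, a repressor of the clock, was at 6.98 ± 0.58 and had 6.20 on the lowest array, a median of 6.91 and 7.67 on the highest. The median SD of the 13 clock genes above 6 was 0.29, against 0.10 for all genes above 6. The time of day at necropsy is not given in the sources used here.

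Protein folding genes were well represented. Of 21 genes of endoplasmic reticulum stress and heat shock, 20 were above 6. The chaperone Hspa5 (BiP) was at 12.40 ± 0.10 and the mitochondrial pair Hspe1 and Hspd1 at 12.24 ± 0.11 and 12.24 ± 0.056. The stress factor Ddit3 was at 6.41 ± 0.25 and the inducible chaperone Hspa1a at 5.19 ± 0.24. Their spread was intermediate, with a median SD of 0.18 and none over 0.5.

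Sgk1, a kinase induced by glucocorticoids, was among the most variable genes, with 8.39 on the lowest array, a median of 9.72 and 11.33 on the highest. Its low values were on replicates 1 and 6, as were those of Fgf21. Fkbp5, also induced by glucocorticoids, was at 6.44 ± 0.16.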
